A study of Mus musculus with 11 samples.

Results

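The core circadian clock genes described here are 10 genes of the 24411 in the deposited expression table, chosen by symbol: Arntl, Clock, Per1, Per2, Cry1, Cry2, Nr1d1, Nr1d2, Dbp and Tef. They were measured by RNA-seq in bulk neuroblastomas of homozygous Th-MYCN mice, a transgenic model in which the human MYCN oncogene is driven by the tyrosine hydroxylase promoter, so that tumours form in the sympathoadrenal lineage. All groups carried the transgene. Mice whose tumours had reached 5 mm across received 1 dose, and the tumours were taken 16 hours later and flash frozen. The CBL0137 group (n = 3 libraries) received 40 mg/kg into a vein, the panobinostat group (n = 2, replicates 1 and 3) received 5 mg/kg into the peritoneum, the combination group (n = 3) received both, and the vehicle group (n = 3) received the carrier. CBL0137 binds DNA and engages the histone chaperone FACT, and panobinostat inhibits histone deacetylases. Panobinostat replicate 2 has no column in the expression table, so it was not analysed here. The study included 3 mice a group, and p-values measure the spread between these tumours.

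In the mammalian clock, BMAL1 (encoded by Arntl) and CLOCK bind E-boxes as a pair and activate the Per and Cry genes, whose products return to block the pair. The same pair activates Nr1d1 and Nr1d2, which encode the REV-ERB receptors, and these repress Arntl at response elements that they share with the activating ROR receptors. Dbp and Tef encode activators of the PAR bZIP family, which carry the rhythm to output genes through D-boxes, and in rhythmic mouse tissues Arntl peaks at a phase opposite to that of Nr1d1 and Dbp. The hour of day at dosing and harvest is not given in the sources used here, and with 1 harvest time a shift in phase and a change in mean level cannot be told apart.

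The promoter windows of 4 members are printed here because their difference between combination-treated and vehicle tumours passed the test in all 11 fits that left out 1 library and in all 9 other alternatives (Arntl, Cry1, Nr1d2 and Tef). Each holds the 250 bases before a RefSeq transcript start (build GRCm38.p6, strand of the gene, 5′ to 3′). Capitals mark E-boxes (CACGTG), RORE half-sites (AGGTCA, or TGACCT on the other strand) and CCAAT boxes (CCAAT, or ATTGG on the other strand). The windows are chr7:113207215-113207464 (plus strand) for Arntl, chr10:85185055-85185304 (minus strand) for Cry1, chr14:18239107-18239356 (minus strand) for Nr1d2 and chr15:81811164-81811413 (plus strand) for Tef.
Arntl: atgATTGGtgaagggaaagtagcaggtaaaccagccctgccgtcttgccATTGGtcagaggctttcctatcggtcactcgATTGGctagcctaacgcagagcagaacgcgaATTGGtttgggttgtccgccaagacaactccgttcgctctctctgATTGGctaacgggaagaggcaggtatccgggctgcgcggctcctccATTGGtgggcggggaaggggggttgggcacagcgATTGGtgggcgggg
Cry1: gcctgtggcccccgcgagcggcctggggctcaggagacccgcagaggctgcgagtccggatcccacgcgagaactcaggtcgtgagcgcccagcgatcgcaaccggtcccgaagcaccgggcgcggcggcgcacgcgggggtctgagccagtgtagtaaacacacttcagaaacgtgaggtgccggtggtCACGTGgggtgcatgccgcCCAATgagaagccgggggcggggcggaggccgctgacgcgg
Nr1d2: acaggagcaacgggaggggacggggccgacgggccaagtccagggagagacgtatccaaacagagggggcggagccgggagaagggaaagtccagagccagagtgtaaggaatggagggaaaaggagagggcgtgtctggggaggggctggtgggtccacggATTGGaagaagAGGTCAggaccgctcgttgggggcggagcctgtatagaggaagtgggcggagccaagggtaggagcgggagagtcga
Tef: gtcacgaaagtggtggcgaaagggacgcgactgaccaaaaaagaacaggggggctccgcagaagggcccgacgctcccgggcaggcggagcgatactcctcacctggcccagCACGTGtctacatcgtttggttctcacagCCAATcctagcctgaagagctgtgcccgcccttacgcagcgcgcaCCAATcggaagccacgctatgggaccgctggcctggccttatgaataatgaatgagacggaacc

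Of the 10 members, 9 matched the RefSeq promoter table, with 14 windows between them. Per2 was not among them. An E-box was found in 4 of the 14 windows, belonging to Cry1, Per1 and Tef, against 6.02% of the 32851 mouse windows of the same length. In the Cry1 window printed above, the E-box starts 60 bases before the transcript start. The RORE half-site was found for Clock, Nr1d2 and Per1, against 14.0% of all windows, and starts 77 bases before the Nr1d2 start. No Arntl window held it. The search covered only these exact letters in the 250 bases before a start. Response elements with other letters or at other positions would be missed. No member window held the D-box letters TTATGTAA or TTACGTAA (0.819% and 0.113% of all windows) or the cAMP response element TGACGTCA (1.55%). The Arntl window stood out by its CCAAT boxes, a motif that was searched only after the sequence had been read. It holds 7 copies, and only 3 of the 32851 windows hold as many, 2 of which are the overlapping windows of Arntl itself. The other 3 printed windows hold 1 or 2 copies, and 33.8% of all windows hold at least 1. All motifs were searched on both strands, no marked match overlaps another, and a match describes the letters only.

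All 10 members passed the filter on low values (at least 1 TPM in at least 2 libraries), which kept 15497 genes. TPM, a measure of transcript abundance, scales each library to a fixed total and corrects for transcript length. Each test was limma's on log2(TPM + 1), with Benjamini-Hochberg adjustment over all tested genes, and a gene is called where the adjusted p is under 0.05. Fold changes on that scale understate the change of genes at a few TPM, such as Per2, Arntl and Nr1d1. Read depth is unknown, because TPM carry no counts.

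Markers of the labelled tumour type were present, and all 10 sympathoadrenal genes (Th, Dbh and others) averaged at least 1 TPM in every group, with summed levels of 1793 to 2219.5 TPM after CBL0137, 1085 to 1281 after panobinostat, 779.6 to 1693 after the combination and 1272 to 1425 after vehicle. The sums overlapped between combination and vehicle tumours, but 6 of the 10 genes fell and 2 rose after the combination against vehicle, with a median of -1.05 on the log2 scale (30.1% and 35.9% of all tested genes fell and rose). Against CBL0137 alone 6 fell in the combination and none rose (23.7% and 33.2% of all tested genes fell and rose). Against panobinostat alone 4 fell and none rose (4.30% and 6.24% of all tested genes fell and rose). The part of this fall in the results below was not tested. Markers of other cell types moved with treatment. The summed level of 10 macrophage genes was 704 to 1403 TPM after CBL0137, 2000.02 to 2594 after panobinostat and 3339 to 5024 after the combination, against 286 to 335 after vehicle. That of 10 fibroblast and pericyte genes was 681 to 1585, 3176 to 3678 and 4434 to 5575 TPM in the same 3 treated groups, against 304 to 493 after vehicle, and 8 endothelial genes stood in the same order (87.6 to 209.6, 210.8 to 239.7 and 394 to 735 TPM, against 40.7 to 62.2). After the combination 5 of 5 neutrophil, 4 of 5 Schwann cell, 3 of 5 T cell and 1 of 5 B cell markers tested rose. Single libraries also held high levels of marker genes of other tissues. The summed level of 6 adrenal cortex genes was 5242 TPM in combination replicate 2 and at most 28.1 TPM in every other library, that of 6 muscle genes was 8409 TPM in panobinostat replicate 3, 649 TPM in combination replicate 1, 534 TPM in CBL0137 replicate 2 and at most 60.4 TPM elsewhere, and that of 6 kidney genes was 457 TPM in vehicle replicate 2 and at most 3.87 TPM in every other library. The kidney genes Kap, Slc34a1 and Aqp2 were listed at 0 in all CBL0137 libraries, and the adrenal cortex genes Cyp11b1 and Nr5a1 in both panobinostat libraries. The part of these markers in the results below was not tested. Every count of members against vehicle or CBL0137 is therefore also given without combination replicate 2, panobinostat replicate 3 and vehicle replicate 2. They are called below the 3 libraries that held adrenal cortex, muscle or kidney markers, or markers of other tissue. This alternative was chosen after the data were seen. It keeps combination replicate 1 and CBL0137 replicate 2, which also held muscle markers. It leaves panobinostat replicate 1 alone in its group, and it called fewer of all tested genes in these comparisons than the main fit. In bulk RNA, fewer cells of a type and less RNA per cell cannot be told apart.

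The combination changed 6 of the 10 core clock genes against vehicle, where 66.0% of all tested genes were called, so the share among the clock genes was near the background. Arntl, Per2, Nr1d1 and Nr1d2 rose (35.9% of all tested genes did), and Cry1 and Tef fell (30.1% did). Clock, Per1, Cry2 and Dbp were not called. In the 6 called genes the libraries of the 2 groups did not overlap, which held for 70.8% of all tested genes. The median size of the change, without its sign, was 0.75 over the 10 members on the log2 scale and 0.74 over all tested genes. Without the 3 libraries that held adrenal cortex, muscle or kidney markers, the called members numbered 4, namely Arntl and Nr1d2 (higher) and Cry1 and Tef (lower).

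**Figure D1:**
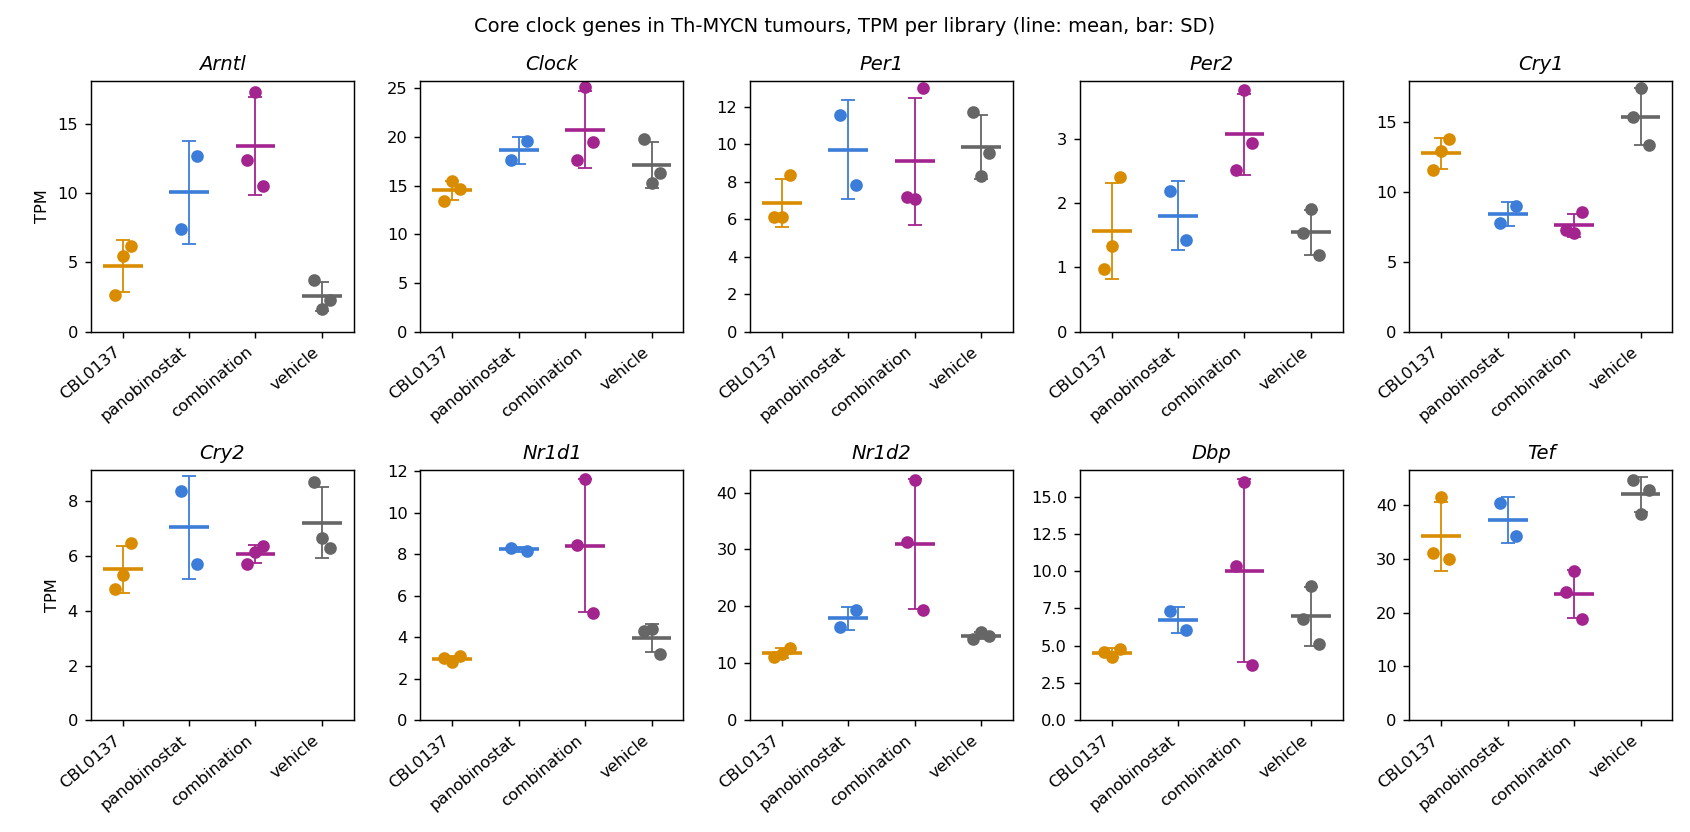
TPM of the 10 core clock genes in each of the 11 libraries, by group (3 CBL0137, 2 panobinostat, 3 combination and 3 vehicle). Points are libraries, lines are group means and bars are SDs. Arntl lies at 7.42 TPM or above in all 5 panobinostat and combination libraries and at 3.7 TPM or below in the vehicle libraries, whereas Cry1 shows the reverse order.

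Among the activators, Arntl (chr7:113207465-113314126, plus strand, mm10) showed the widest range of the 10 members. It was measured at 2.63, 5.45 and 6.19 TPM after CBL0137, 7.42 and 12.7 TPM after panobinostat, 12.36, 17.3 and 10.48 TPM after the combination, and 3.7, 1.65 and 2.32 TPM after vehicle. All panobinostat and combination libraries lay above all vehicle libraries, while the CBL0137 libraries overlapped them. The means were 13.4 ± 3.52 TPM in combination tumours and 2.56 ± 1.05 TPM in vehicle tumours (SD, n = 3 each), a ratio of 5.23. On the log2(TPM + 1) scale Arntl rose by 2.03 ± 0.33 (SE) after the combination (limma adjusted p = 0.000362) and by 1.64 ± 0.37 after panobinostat (limma adjusted p = 0.00605). After CBL0137 the estimate was 0.68 ± 0.33, with a 95% interval of -0.06 to 1.41 (limma adjusted p = 0.239). The panobinostat call rested on replicate 3, the panobinostat library with muscle markers. Without that replicate the estimate was 1.28 (limma adjusted p = 0.0635), and without all 3 libraries that held markers of other tissue it was 1.09 (limma adjusted p = 0.112). Under quantile normalization it was 0.90 (limma adjusted p = 0.0571).

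Clock (chr5:76209868-76304792, minus strand), whose product pairs with BMAL1, was called in no comparison with vehicle. It stood at 13.47, 15.46 and 14.67 TPM after CBL0137, 17.63 and 19.64 TPM after panobinostat, 17.63, 25.18 and 19.51 TPM after the combination, and 19.76, 15.31 and 16.33 TPM after vehicle. The groups overlapped in each of these comparisons. The estimate after the combination was 0.26 ± 0.15 (limma adjusted p = 0.16). Within a library, the ratio of Arntl to Clock was 0.537 to 0.701 after the combination and 0.421 to 0.647 after panobinostat, with 0.195 to 0.422 after CBL0137 and 0.108 to 0.187 after vehicle. These ratios do not change when a whole library is multiplied by 1 factor. They can change under quantile normalization, which shifts genes by different amounts. The ratios were chosen after their values were seen and are given without a test.

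Among the repressors, Cry1 fell after panobinostat and after the combination. Cry1 (chr10:85131700-85185064, minus strand) was measured at 11.59, 12.92 and 13.76 TPM after CBL0137, 7.8 and 9.02 TPM after panobinostat, 7.28, 7.03 and 8.56 TPM after the combination, and 15.38, 17.41 and 13.33 TPM after vehicle. Every panobinostat and combination library lay below every vehicle library. Cry1 fell by 0.92 ± 0.14 on the log2 scale after the combination (limma adjusted p = 0.00028), to a ratio of means of 0.496. After panobinostat it fell by 0.79 ± 0.16 (limma adjusted p = 0.00375). Both calls held in each of the 11 fits that left out 1 library. Cry2 (chr2:92403646-92434043, minus strand), the paralog, was not called in any comparison with vehicle. Its levels were 4.78, 5.32 and 6.46 TPM after CBL0137, 8.38 and 5.71 TPM after panobinostat, 5.7, 6.15 and 6.36 TPM after the combination, and 8.69, 6.64 and 6.29 TPM after vehicle, and the groups overlapped. Cry1 stood at 1.14 to 1.35 times the level of Cry2 within combination libraries and 0.931 to 1.58 times within panobinostat libraries, against 1.77 to 2.62 times within vehicle libraries. The CBL0137 libraries, at 2.13 to 2.43 times, lay inside the vehicle range.

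Per1 (chr11:69095217-69109960, plus strand), a period gene that also answers acutely to hormones and cAMP, was not called in any comparison. Its levels were 6.11, 6.13 and 8.34 TPM after CBL0137, 11.56 and 7.82 TPM after panobinostat, 7.2, 7.05 and 12.99 TPM after the combination, and 11.69, 8.31 and 9.54 TPM after vehicle. All groups overlapped, and the estimate after the combination was -0.14, with a 95% interval of -0.70 to 0.41. Per2 (chr1:91415982-91459324, minus strand) was the lowest of the 10 members in every group. It stood at 0.97, 1.33 and 2.4 TPM after CBL0137, 2.18 and 1.42 TPM after panobinostat, 2.52, 3.75 and 2.93 TPM after the combination, and 1.54, 1.9 and 1.19 TPM after vehicle. The 3 combination libraries lay above the 3 vehicle libraries, and Per2 rose by 0.68 ± 0.25 (limma adjusted p = 0.0326). That call was lost in 4 of the 11 fits that left out a library, those without vehicle replicate 1 or 3 or combination replicate 2 or 3 (limma adjusted p up to 0.11), and its sign turned under quantile normalization (-0.20). It was also lost when small structural RNA and histone genes were taken out before scaling (limma adjusted p = 0.0645). The share of TPM in those genes was 16.9 to 25.6% in combination libraries and 27.0 to 30.6% in vehicle libraries.

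Both REV-ERB receptor genes rose after the combination, while panobinostat alone called only Nr1d1. Nr1d1 (chr11:98767932-98775333, minus strand), encoding REV-ERB alpha, was measured at 3.02, 2.82 and 3.08 TPM after CBL0137, 8.32 and 8.16 TPM after panobinostat, 8.42, 11.62 and 5.19 TPM after the combination, and 4.28, 4.42 and 3.21 TPM after vehicle. The panobinostat and combination libraries lay above the vehicle libraries and the CBL0137 libraries below them. Nr1d1 rose by 0.87 ± 0.24 on the log2 scale after the combination (limma adjusted p = 0.00861) and by 0.90 ± 0.27 after panobinostat (limma adjusted p = 0.0214). Under quantile normalization the 2 estimates were 0.14 and 0.17, neither of them called (limma adjusted p = 0.653 and 0.668). Without the 3 libraries that held markers of other tissue they were 0.70 and 0.98 (limma adjusted p = 0.0504 and 0.0625). The panobinostat call was also lost without vehicle replicate 3, panobinostat replicate 1 or panobinostat replicate 3 (limma adjusted p = 0.0713, 0.0796 and 0.0859).

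Nr1d2 (chr14:18204054-18239127, minus strand), encoding REV-ERB beta, reached the top of the 10 members after the combination. Its levels were 11.1, 11.63 and 12.76 TPM after CBL0137, 16.45 and 19.34 TPM after panobinostat, 31.29, 42.26 and 19.32 TPM after the combination, and 14.3, 15.48 and 14.75 TPM after vehicle. The combination libraries lay above all vehicle libraries, and combination replicate 3 lay level with panobinostat replicate 3. Nr1d2 rose by 0.95 ± 0.23 after the combination (limma adjusted p = 0.00413), and the estimate after panobinostat was 0.25 (limma adjusted p = 0.453). Within a library Nr1d2 stood at 1.98 to 2.37 times Nr1d1 after panobinostat, against 3.34 to 4.60 times after vehicle, and the combination and CBL0137 libraries (3.64 to 3.72 and 3.68 to 4.14 times) lay inside the vehicle range. Arntl and both of its REV-ERB repressors were thus higher together in the combination tumours, and Arntl stood at 1.47 to 2.02 times Nr1d1 there. The ratio was 0.871 to 2.01 after CBL0137 and 0.892 to 1.56 after panobinostat, against 0.373 to 0.864 after vehicle, so that every treated library lay above every vehicle library.

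The transcripts of Nr1d1 and Thra, a thyroid hormone receptor gene on the opposite strand, overlap over 1075 bases at their 3′ ends (chr11:98767932-98769006, mm10). The libraries were stranded, but whether the counting used the strand is not given in the sources used here. Thra moved the other way. It stood at 29.51, 33.65 and 34.6 TPM after the combination, against 57.57, 54.79 and 58.16 TPM after vehicle, and fell by 0.79 on the log2 scale (limma adjusted p = 0.000314). Dbp overlaps Sphk2 in the same manner over 737 bases. Sphk2 was not called against vehicle after any treatment. Cry2 and D930015M05Rik overlap over 23417 bases, and D930015M05Rik, at 1.21 TPM or below in every library, was not called in any comparison. Arntl overlaps Gm45355 over 2394 bases and Tef overlaps Gm17597 over 193 bases, also on opposite strands. Neither of these neighbours is in the expression table, so their levels are unknown. The doubt about strand applies to the values of all 5 members and to the ratios that use them.

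Of the PAR bZIP genes, Tef fell after the combination and Dbp was not called. Tef (chr15:81802421-81826863, plus strand) was measured at 31.11, 41.45 and 29.87 TPM after CBL0137, 40.3 and 34.26 TPM after panobinostat, 23.86, 27.77 and 18.75 TPM after the combination, and 44.7, 38.35 and 42.79 TPM after vehicle. The combination libraries lay below all 8 others. Tef fell by 0.83 ± 0.17 after the combination (limma adjusted p = 0.00142), with estimates of -0.30 after CBL0137 and -0.17 after panobinostat, neither of them called. Dbp (chr7:45705088-45710203, plus strand) was the most scattered member relative to its mean after the combination. It stood at 4.6, 4.23 and 4.79 TPM after CBL0137, 7.35 and 6.09 TPM after panobinostat, 10.37, 16.01 and 3.74 TPM after the combination, and 6.77, 9.03 and 5.12 TPM after vehicle. Combination replicate 3 had the lowest Dbp level of all 11 libraries and replicates 1 and 2 the highest. The estimate was 0.31 ± 0.39, with a 95% interval of -0.56 to 1.18 (limma adjusted p = 0.501). Without combination replicate 3 it was 0.83 (limma adjusted p = 0.0148).

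**Figure D2:**
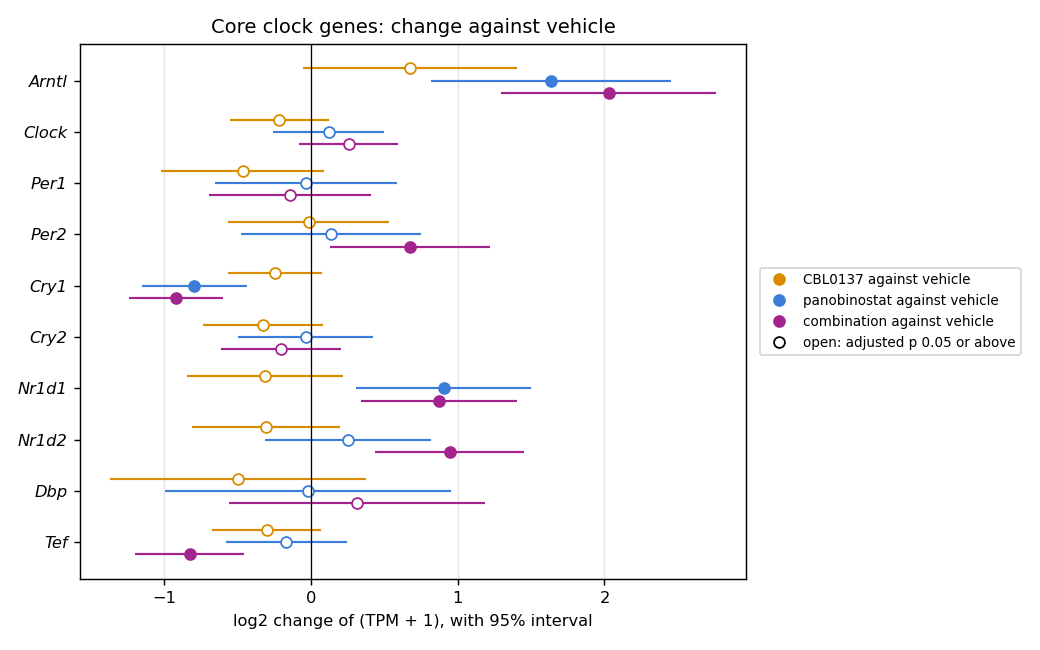
Change of each core clock gene against vehicle on the log2(TPM + 1) scale, for CBL0137, panobinostat and the combination. Points are limma estimates, bars are 95% intervals and filled points have an adjusted p under 0.05. Filled points number 0 after CBL0137, 3 after panobinostat and 6 after the combination, with Arntl furthest to the right and Cry1 furthest to the left.

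Panobinostat alone called 3 of the 10 members against vehicle, Arntl and Nr1d1 (higher) and Cry1 (lower), where 42.4% of all tested genes were called (25.5% higher and 16.9% lower). The median size of change, without its sign, was 0.15 over the members and 0.49 over all tested genes. Of the other 7, Nr1d2 alone had groups that did not overlap, which makes 4 of 10 members, against 64.8% of all tested genes. Without the 3 libraries that held markers of other tissue, panobinostat replicate 1 alone is left, and the estimates were 1.09 for Arntl and 0.98 for Nr1d1. Fewer of all tested genes were called in that fit than in the main one.

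CBL0137 alone called none of the 10 members against vehicle by limma, where 6.12% of all tested genes were called (4.99% higher and 1.13% lower). None had an unadjusted p under 0.05, against 24.5% of all tested genes. The estimates were negative for 9 of the 10, with Arntl the exception, and their median was -0.30 on the log2 scale, against -0.01 over all tested genes. Nr1d1, Nr1d2 and Dbp were lower in every CBL0137 library than in any vehicle library, which is 3 of 10 members where 37.7% of all tested genes had groups that did not overlap. For Dbp the CBL0137 libraries, at 4.23 to 4.79 TPM, were also the tightest of the 4 groups. Their estimates, -0.31, -0.31 and -0.50, had limma adjusted p-values of 0.45, 0.441 and 0.464.

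Set against CBL0137 alone, the combination called 7 of the 10 members, where 56.9% of all tested genes were called (33.2% higher and 23.7% lower). Arntl rose by 1.35 ± 0.33 (limma adjusted p = 0.00568), Clock by 0.47 ± 0.15 (0.0217), Per2 by 0.69 ± 0.25 (0.0344), Nr1d1 by 1.18 ± 0.24 (0.00222) and Nr1d2 by 1.25 ± 0.23 (0.0013). Cry1 fell by 0.67 ± 0.14 (limma adjusted p = 0.00286) and Tef by 0.52 ± 0.17 (0.0208). In all 7 the libraries of the 2 groups did not overlap, as in 65.5% of all tested genes. Without the 3 libraries that held markers of other tissue 5 members were called, the losses being Clock and Per2. The calls of Clock, Per2 and Tef were each lost in at least 2 of the fits that left out 1 library: Clock without CBL0137 replicate 1 or combination replicate 2 (limma adjusted p up to 0.0772), Per2 without CBL0137 replicate 1 or 2 or combination replicate 2 or 3 (up to 0.134), and Tef without CBL0137 replicate 2 or combination replicate 3 (up to 0.0867). Under quantile normalization the Clock estimate was 0.29 (limma adjusted p = 0.114) and the Per2 estimate 0.16 (limma adjusted p = 0.517). The Per2 call was also lost without small structural RNA and histone genes (limma adjusted p = 0.0612), and the Per2 and Tef calls when only the groups compared were fitted (limma adjusted p = 0.059 and 0.0574).

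Set against panobinostat alone, the combination called none of the members by limma, where 10.5% of all tested genes were called (6.24% higher and 4.30% lower), and 2 members had an unadjusted p under 0.05 (33.8% of all tested genes did). Tef was nearest, lower in all 3 combination libraries than in both panobinostat libraries, with an estimate of -0.66 ± 0.19 (limma adjusted p = 0.0501). Tef was called in 6 alternatives, namely a pseudocount of 5, TMM factors, quantile normalization, TPM without small structural RNA and histone genes, and the fits without CBL0137 replicate 2 or 3 (limma adjusted p = 0.019 to 0.0475). Nr1d2 followed with 0.70 ± 0.25 (limma adjusted p = 0.0918), and without combination replicate 3 with 0.99 (limma adjusted p = 0.00781). Per2 was higher in all 3 combination libraries, at 0.54 ± 0.27 (limma adjusted p = 0.193). Groups that did not overlap were found in 46.6% of all tested genes in that comparison. The interaction asks how far the change under both drugs departs from adding up the 2 single-drug changes. It called for none of the members and for 0.00% of all tested genes by limma. Before adjustment, 1631 genes (10.5%) and 1 member, Nr1d2, had a limma p under 0.05. The Nr1d2 estimate was 1.00 ± 0.34 (limma adjusted p = 0.377). Comparisons that share the vehicle or combination libraries are not independent of each other.

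Levels between genes can be set side by side in TPM, which is per transcript length. In vehicle tumours the order was Tef (41.9 ± 3.26 TPM, SD, n = 3), Clock (17.1 ± 2.33), Cry1 (15.4 ± 2.04), Nr1d2 (14.8 ± 0.60), Per1 (9.85 ± 1.71), Cry2 (7.21 ± 1.30), Dbp (6.97 ± 1.96), Nr1d1 (3.97 ± 0.66), Arntl (2.56 ± 1.05) and Per2 (1.54 ± 0.36). Neighbours in that order overlapped between libraries except Tef and Clock, Nr1d2 and Per1, and Dbp and Nr1d1. Arntl, at rank 9 of 10 after vehicle, stood at rank 7 after CBL0137 and rank 4 after panobinostat and after the combination. Nr1d2 and Tef, at 31.0 ± 11.5 and 23.5 ± 4.52 TPM, overlapped at the top of the order after the combination.

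**Figure D3:**
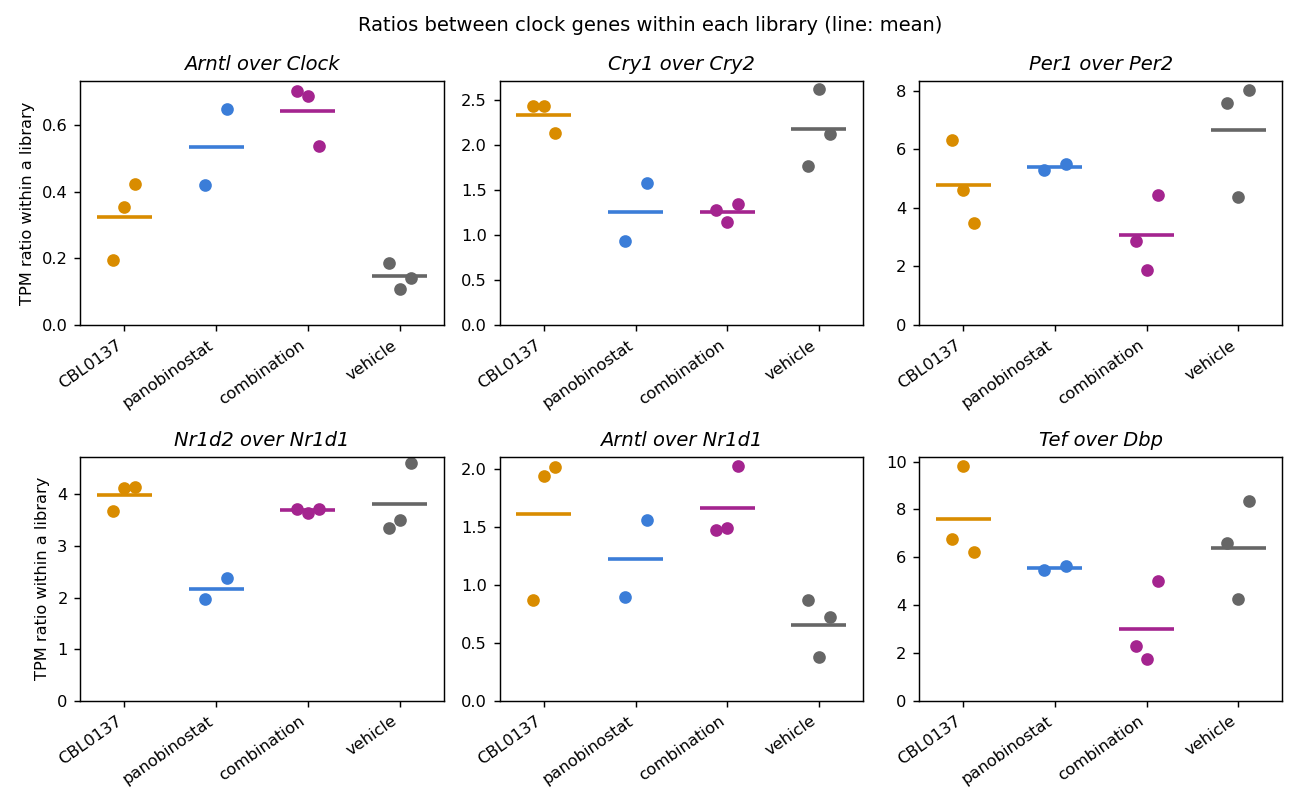
Ratios of TPM between pairs of clock genes within each of the 11 libraries, by group. Points are libraries and lines are group means. Arntl over Clock is 0.421 or more in the panobinostat and combination libraries and 0.187 or less in the vehicle libraries, Cry1 over Cry2 is 1.58 or less against 1.77 or more in the vehicle libraries, and Nr1d2 over Nr1d1 is lowest in the 2 panobinostat libraries.

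Of the remaining ratios, Per1 stood at 1.88 to 4.43 times Per2 in combination libraries, 5.30 to 5.51 times in panobinostat libraries, 3.48 to 6.30 times in CBL0137 libraries and 4.37 to 8.02 times in vehicle libraries. Tef stood at 1.73 to 5.01 times Dbp after the combination, 5.48 to 5.63 times after panobinostat and 6.24 to 9.80 times after CBL0137, against 4.25 to 8.36 times after vehicle. Both ratios overlapped between the combination and vehicle groups, in each case through combination replicate 3. Replicates of the combination group differed in a recurring manner. Replicate 2, the library with adrenal cortex markers, was highest of the 3 for Arntl, Clock, Per2, Nr1d1, Nr1d2, Dbp and Tef. Replicate 3 was lowest for Arntl, Nr1d1, Nr1d2, Dbp and Tef and highest for Per1, Cry1 and Cry2.

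A wider list of 22 clock genes (paralogs, other repressors, ROR receptors, further D-box factors, kinases and ubiquitin ligases acting on PER and CRY, and rhythmic outputs) was measured for comparison, and all 22 passed the filter, Npas2 through combination libraries alone. After the combination 8 rose and 9 fell, or 17 of 22 where 66.0% of all tested genes were called. After panobinostat 5 rose and 1 fell (42.4% of all tested genes called), and after CBL0137 none rose and 1 fell (6.12%). Under quantile normalization the counts after the combination were 4 higher and 10 lower (4162 and 6678 of all 15497 tested genes). After panobinostat the counts were then 1 higher and 4 lower (2451 and 3960 of all tested genes). Without the 3 libraries that held markers of other tissue they were 6 and 9 after the combination and 1 and 0 after panobinostat.

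Among the other repressors, Bhlhe40, which encodes the E-box repressor DEC1, showed the lowest adjusted p of the list. Its levels were 5.39, 5.9 and 10.89 TPM after CBL0137, 14.63 and 18.7 TPM after panobinostat, 19.22, 36.74 and 23.26 TPM after the combination, and 3.83, 4.71 and 3.21 TPM after vehicle. Every treated library lay above every vehicle library. Bhlhe40 rose by 2.44 ± 0.29 on the log2 scale after the combination (limma adjusted p = 5.12e-05) and by 1.85 ± 0.32 after panobinostat (limma adjusted p = 0.00184), in every alternative fit. Bhlhe41, its paralog, rose by 0.79 after the combination (limma adjusted p = 0.00527) and by 0.66 after panobinostat (limma adjusted p = 0.0367), but its sign turned under quantile normalization (-0.10 and -0.26). Its panobinostat call was lost without any 1 of the vehicle libraries, CBL0137 replicate 1 or panobinostat replicate 3 (limma adjusted p up to 0.22).

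Of the activator paralogs, Arntl2 rose by 1.08 ± 0.25 after the combination (limma adjusted p = 0.00368), at 1.84, 2.84 and 4.42 TPM against 1.11, 0.83 and 0.62 TPM after vehicle. Npas2, which can stand in for CLOCK, was measured at 0.25, 0.21 and 0.35 TPM after CBL0137, 0.84 and 0.95 TPM after panobinostat, 1.26, 1.61 and 0.73 TPM after the combination, and 0.24, 0.1 and 0.11 TPM after vehicle. It reached 1 TPM only in combination replicates 1 and 2, so it passed the filter through the group where it is high, and without either of these libraries it was not tested. Its estimates were 0.92 ± 0.20 after the combination and 0.72 after panobinostat (limma adjusted p = 0.00245 and 0.0268). Without Npas2 the counts of the list were 7 higher and 9 lower after the combination and 4 higher and 1 lower after panobinostat. Rora, the ROR receptor gene that activates Arntl, rose by 1.40 ± 0.30 after the combination (limma adjusted p = 0.002) and by 1.42 ± 0.33 after panobinostat (limma adjusted p = 0.00723). Its levels were 6.99 and 7.04 TPM after panobinostat and 7.07, 8.49 and 5.38 TPM after the combination, against 3.53, 1.55 and 1.31 TPM after vehicle. The Rora, Arntl2 and Npas2 estimates were smaller under quantile normalization, where the 4 calls of Arntl2, of Npas2 after both treatments and of Rora after panobinostat were lost. The panobinostat call of Npas2 was also lost without vehicle replicate 2 or 3 or either panobinostat library (limma adjusted p up to 0.111), and that of Rora without the 3 libraries that held markers of other tissue.

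Hlf, the third PAR bZIP gene beside Dbp and Tef, showed the largest fall of the 22 after the combination. It stood at 49.58, 40.22 and 40.27 TPM after CBL0137, 51.83 and 38.74 TPM after panobinostat, 21.31, 6.59 and 22.27 TPM after the combination, and 93.84, 66.95 and 73.5 TPM after vehicle. All 8 treated libraries lay below all 3 vehicle libraries. Hlf fell by 2.31 ± 0.37 after the combination (limma adjusted p = 0.000328), and the estimates after CBL0137 (-0.83) and panobinostat (-0.77) were not called (limma adjusted p = 0.201 and 0.155). Against panobinostat alone it was lower after the combination by 1.54 ± 0.41 (limma adjusted p = 0.0439), a call lost without any 1 of the vehicle or panobinostat libraries, CBL0137 replicate 1 or 2 or combination replicate 1 (limma adjusted p up to 0.227).

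Some genes whose products act on the PER proteins also moved. Csnk1e, encoding casein kinase 1 epsilon, which phosphorylates PER, was measured at 92.86, 91.18 and 80.19 TPM after CBL0137, 80.41 and 64.87 TPM after panobinostat, 41.76, 34.17 and 57.44 TPM after the combination, and 118.84, 98.58 and 112.45 TPM after vehicle. The combination libraries lay below all others. It fell by 1.32 ± 0.17 after the combination (limma adjusted p = 0.000102), by 0.60 after panobinostat (0.0317) and by 0.72 in the combination against panobinostat (0.0445). The call after panobinostat was lost without vehicle replicate 1 or 3 or panobinostat replicate 3 (limma adjusted p up to 0.204), and the call against panobinostat held only without CBL0137 replicate 3 or combination replicate 3 among the fits that left out 1 library (up to 0.246 otherwise). Btrc, which encodes the ubiquitin ligase subunit that recognises phosphorylated PER, fell by 0.75 ± 0.15 after the combination (limma adjusted p = 0.00137). Of other genes acting on PER or CRY, Gsk3b (-0.55) and Fbxw11 (-0.33) fell and Fbxl21 (0.86) rose after the combination. Their limma adjusted p-values were 0.0145, 0.0258 and 0.0137, and each call was lost in some fits that left out 1 library. Csnk1d (0.16), the paralog of Csnk1e, was not called there (limma adjusted p = 0.312). The protein levels of PER were not measured.

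Among rhythmic outputs, Nampt, the rate-limiting enzyme of NAD salvage, rose by 0.89 ± 0.19 after the combination (limma adjusted p = 0.0021). Its levels were 126.02, 134.74 and 75.39 TPM after the combination and 47.79 and 52.55 TPM after panobinostat, against 57.41, 61.61 and 55.19 TPM after vehicle. It was the 1 gene of the 22 that rose in the combination against panobinostat (1.10 ± 0.21, limma adjusted p = 0.0172), a call lost without either panobinostat library or combination replicate 1 (limma adjusted p up to 0.112). Wee1, a kinase that restrains entry into mitosis, fell by 0.93 ± 0.19 after the combination (limma adjusted p = 0.00146). Usp2, a deubiquitinase gene, fell after CBL0137 (0.76 lower on the log2 scale, limma adjusted p = 0.0373) and after the combination (0.84 lower, limma adjusted p = 0.00221). The CBL0137 call of Usp2 was lost in 9 of the 11 fits that left out 1 library, all but those without combination replicate 2 or 3 (limma adjusted p up to 0.117).

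**Figure D4:**
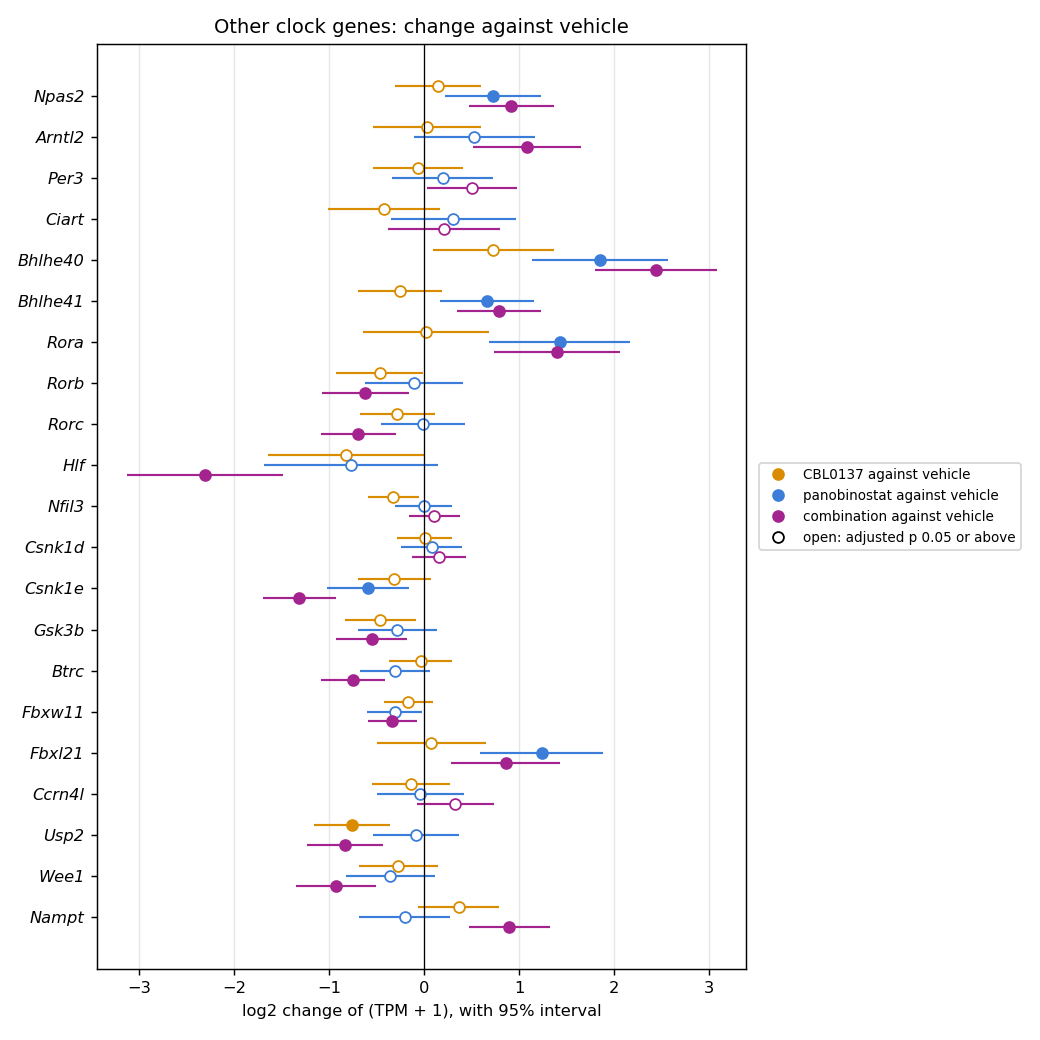
Change of 21 of the 22 other clock genes against vehicle on the log2(TPM + 1) scale after CBL0137, panobinostat and the combination, from paralogs at the top to rhythmic outputs at the bottom (Ccrn4l is the symbol in the table for Noct). Points are limma estimates, bars are 95% intervals and filled points have an adjusted p under 0.05. Bhlhe40 lies furthest to the right (2.44) and Hlf furthest to the left (-2.31), both after the combination.

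Per1 is induced by glucocorticoids and by cAMP signalling through CREB, so 10 responsive genes of each kind were counted beside it. Of the glucocorticoid-responsive genes, none was called after CBL0137, 7 rose after panobinostat and 7 after the combination, where 4.99%, 25.5% and 35.9% of all tested genes rose. The medians were 0.14, 1.06 and 1.22 on the log2 scale, against -0.01, 0.10 and 0.08 over all tested genes. Cebpd, Mt1 and Sgk1 rose by 2.96, 1.67 and 1.76 after the combination (limma adjusted p = 3.33e-05, 4.71e-05 and 0.000179). Fkbp5 (-0.34) and Tsc22d3 (0.23), named after their values were seen, were not called there (limma adjusted p = 0.0595 and 0.379). Of the genes responsive to cAMP and CREB, 3 rose after CBL0137, 6 after panobinostat and 8 after the combination, where Nr4a2 (named after its values were seen) fell. Their medians were 0.41, 1.03 and 1.88. Fosb and Nr4a3 reached 1 TPM in combination libraries alone, and without them 3 of 8 rose after CBL0137, 6 after panobinostat and 6 after the combination. Junb, Crem and Atf3 rose by 2.68, 1.56 and 3.08 after the combination (limma adjusted p = 1.24e-05, 1.80e-05 and 2.23e-05). Per1 itself, at -0.14 after the combination and -0.03 after panobinostat, was not called beside either list.

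The genes nearest in pattern to a member were found by the root mean square difference of log2(TPM + 1) over the 11 libraries, each gene centred on its own mean. They are named for the 4 members with the widest range of group means. Nearest to Arntl were Cdc42ep2, Cd151 and Gna15, each at a difference of 0.223. Nearest to Nr1d2 were Plag1 (0.175), Fam126a (0.176) and Atl3 (0.176), and nearest to Nr1d1 were Ccbe1 (0.164), Lefty1 (0.178) and Tmem98 (0.180). Plag1, Ccbe1 and Lefty1 stood low, with group means of 0.21 to 1.86, 0.083 to 1.40 and 0.39 to 2.40 TPM. Gna15 ranged from a mean of 0.74 TPM after vehicle to 5.21 TPM after the combination. The match of these genes, Gna15 included, may depend on the added 1 TPM. Nearest to Cry1 were Pdcd2 (0.0844), Pgam5 (0.119) and Msto1 (0.123). The points share the libraries, and no test was made.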

How the data were processed

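RNA from 11 bulk tumours was sequenced after ribosomal depletion as stranded libraries. The submitters' processing notes name STAR, SAMtools, RSEM and mm10, and the authors deposited TPM values for 24411 genes. Tool versions and the gene annotation are not given in the sources used here. Each library sums to 1000000 TPM, so depth and counting error are unknown. For 27 genes whose symbol had become a date, the transcript identifier was used.

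Tests covered the 15497 genes that reached 1 TPM in 2 or more libraries. One limma 3.58.1 model (R 4.3.3, trend, 7 residual degrees of freedom) fitted the 4 group means of log2(TPM + 1), 2-sided, with Benjamini-Hochberg adjustment over all tested genes and a threshold of 0.05. On simulated data with independent noise, only the recovery of planted changes was checked, and the rate of false calls was not. Alternatives were pseudocounts of 0.1 and 5, no filter, TMM factors (computed directly on TPM), quantile normalization, TPM without small structural RNA and histone genes, a replicate block, only the groups compared, and leaving out libraries. Where leaving out a library leaves 1 in a group, it is assumed to vary like the others.

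The members and lists were chosen with earlier results of these data known. All 10 members are named. Of the 22 other clock genes, those called against vehicle are named, at most 12 by lowest adjusted p, and of the glucocorticoid and CREB lists up to 3 each. Beyond that rule, Gsk3b, Fbxw11, Fbxl21 and Csnk1d were named after their values were seen. One gene of the 22 is counted there but not reported here by name. Positions are from GENCODE M21 (mm10) and promoter windows from RefSeq (GRCm38.p6).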

Additional observations from a re-analysis of the deposited data

How the results depend on the processing

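For panobinostat against vehicle, the count of members called was 1 without the 3 libraries that held markers of other tissue, and 1 to 3 over the fits that left out 1 library, against 3 as reported. In the combination against panobinostat it was 1 with a pseudocount of 5, with TMM factors, with quantile normalization and without small structural RNA and histone genes (Tef in each), and 0 to 1 over the fits that left out 1 library, against 0. The count was 5 to 6 when 1 library was left out and 4 to 6 otherwise for the combination against vehicle, 5 to 7 in both cases against CBL0137, and 0 in every fit for CBL0137 against vehicle and for the interaction. Per2 reversed under quantile normalization, to -0.74 after panobinostat (limma adjusted p = 0.0251) and -0.20 after the combination. That normalization also called Per1 (-0.64) and Cry2 (-0.85) lower after the combination and Cry2 (-0.68) after panobinostat, and it moved the median change of all tested genes to -0.26 after the combination, against 0.08 as deposited. All tested genes called after the combination were then 4162 higher and 6678 lower, against 5568 and 4666 as deposited, and after panobinostat 2451 and 3960, against 3959 and 2613. The cause was not tested.

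Whether replicate numbers pair the samples is not given in the sources used here. After each gene was centred on its group means, 2 of 15 same-number correlations exceeded 0.1, as did 10 of 30 others. Of the 11 libraries, 1 correlated best with its own number. Groups of 2 or 3 libraries are too small for this check to decide pairing, because centred values within a group constrain each other. With the replicate block, the Per2 calls in the combination against vehicle and CBL0137 had limma adjusted p-values of 0.0567 and 0.0601. All tested genes called then numbered 521 for CBL0137 against vehicle and 345 for the combination against panobinostat.

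Counts over all tested genes moved by over 1.5 times for CBL0137 against vehicle (949, with 324 to 1333 when 1 library was left out and 198 to 1325 otherwise), panobinostat against vehicle (6572, 4049 to 7174 and 3262 to 6934), the combination against panobinostat (1634, 362 to 3366 and 2 to 3327) and the interaction (0, 0 to 44 and 0 to 2). Read depth limits low members such as Per2 to an unknown degree.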
